A study of Homo sapiens with 6 samples.

Results

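The DNAJ family comprises the genes whose symbol reads DNAJA, DNAJB or DNAJC followed by a number and, in a few cases, a letter. All rows of the gene tables with such a symbol were taken, which gave 44 members of 19940 rows, with 4 in class A, 12 in class B and 28 in class C. Their levels were followed in U2OS cells, a human osteosarcoma line, that stably overexpressed GFP-DCP1a, a fluorescently tagged protein of the mRNA decapping complex, and were kept under G418 selection. Rescue cells were held for 4 h in hypertonic medium with 300 mM sodium and then for 4 h in isotonic medium with 150 mM sodium. Hypertonic cells were held for 4 h at 300 mM sodium, and isotonic cells at 150 mM sodium. Each group had 2 libraries of total RNA depleted of ribosomal RNA, and all 3 groups carried the transgene. The sources used here do not say whether the line is 1 clone. Rescue cells were harvested after 4 h more of culture than hypertonic cells, so the return to isotonic medium and the added time cannot be told apart.

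J-domain proteins are co-chaperones of the HSP70 chaperones. The J domain, with its conserved HPD motif, stimulates ATP hydrolysis by HSP70 and so closes the chaperone on its substrate. Class A and B members mostly deliver unfolded proteins. Class C members mostly bring HSP70 to a given site, such as the clathrin coat, the mitochondrial import channel or the ribosome. Several cytosolic members are classical targets of the heat shock factor HSF1, which binds inverted repeats of the unit GAA in promoters. Hypertonic medium shrinks cells and crowds their proteins, and heat shock genes are among the genes known to respond to it.

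The promoter sequences are shown because these HSF1-type repeats are the feature by which the heat-inducible members are usually recognised. RefSeq promoter windows (GRCh38.p14) of 250 bases before to 50 bases after a listed start were found for 40 of the 44 members. These members had 52 windows, some of them several, and a listed start can lie inside the gene span. The 3-unit element, GAANNTTC followed at once by NNGAA, or its reverse complement, was searched on both strands and was found in 2 members, DNAJA1 and DNAJB6. It was in 0.608% of the 27305 genes with a window. The 2-unit element, GAANNTTC or TTCNNGAA, was in 8 of the 40 members and 16.2% of all genes, and each 3-unit match also contains matches of this kind. The 8 were DNAJA1, DNAJA4, DNAJB1, DNAJB4, DNAJB6, DNAJB7, DNAJC6 and DNAJC15. The endoplasmic reticulum stress element, CCAAT and CCACG with 9 bases of any kind between them, was searched on both strands and was in none of the 40 and in 0.092% of all genes. In the sequences that follow, capitals mark the 3-unit matches of DNAJA1 and DNAJB6 and the 2-unit matches of DNAJB1 and DNAJA4. DNAJA1 is shown at chr9:33025259-33025288 on the plus strand, where the match spans positions 4 to 16 after the start. DNAJB6 is shown at chr7:157336854-157336903 on the plus strand, with its match at positions -131 to -119. DNAJB1 is shown at chr19:14518428-14518483 on the minus strand and DNAJA4 at chr15:78264462-78264526 on the plus strand. A further 2-unit match of DNAJB1, in another of its windows, is not shown. A match describes the letters in these windows and is not evidence of binding.
DNAJA1: ctgcggcgcgccgggcgGAACTTTCCAGAA
DNAJB6: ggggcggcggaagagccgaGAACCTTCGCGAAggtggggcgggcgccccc
DNAJB1: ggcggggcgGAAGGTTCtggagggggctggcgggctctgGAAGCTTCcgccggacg
DNAJA4: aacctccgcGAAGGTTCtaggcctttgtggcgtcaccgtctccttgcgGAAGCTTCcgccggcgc

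Library totals lay between 90196278 and 105991428 counts, and 3 counts were worth 0.0283 to 0.0333 CPM, the gene's count scaled by the library total to the usual CPM unit. The libraries of 4 samples did not group by their labels. Over 17388 genes, hypertonic 2 and isotonic 1 differed at least 2-fold in 39 genes, and hypertonic 1 and isotonic 2 in 52. Rescue 1 and rescue 2 differed at least 2-fold in 20 genes, whereas the hypertonic pair did so in 3925 and the isotonic pair in 3976. The summed level of 5 osmotic marker genes was 4360 CPM in the library labelled hypertonic 1 and 4422 CPM in isotonic 2, against 854 CPM in the library labelled hypertonic 2 and 839.7 CPM in isotonic 1. The labels were kept, and every direction below is that of the library labelled hypertonic or isotonic. Of 9 bone lineage markers, 3 stayed below 1 CPM in every library (COL1A2, IBSP and SP7), and the 9 summed to between 1663 and 2049 CPM. The labels leave unsaid if a group's 2 libraries are separate cultures, so p-values reflect only how far these libraries vary, and that variation may be technical.

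The members showed the same crossed arrangement. Of the 44 members, 15 differed at least 1.5-fold between hypertonic 1 and hypertonic 2 and 18 between isotonic 1 and isotonic 2. Such a difference was found in no member between hypertonic 1 and isotonic 2, in 1 between hypertonic 2 and isotonic 1, and in 1 between the rescue libraries. Over the 37 members with a mean of at least 5 CPM, the ratio of hypertonic 2 to isotonic 1 stayed between 0.934 and 1.09 and that of hypertonic 1 to isotonic 2 between 0.891 and 1.18. The ratio of rescue 2 to rescue 1 stayed between 0.872 and 1.14. Members together took 2161 and 2163 CPM in rescue 1 and 2, 2785 and 2522 CPM in hypertonic 1 and 2, and 2526 and 2783 CPM in isotonic 1 and 2. The lower sum in rescue came mostly from DNAJA1 and DNAJB1. The other 42 members summed to 1826 and 1844 CPM in rescue 1 and 2, 1763 and 1963 CPM in hypertonic 1 and 2, and 1963 and 1767 CPM in isotonic 1 and 2, so that rescue lay between the crossed pairs.

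**Figure D1:**
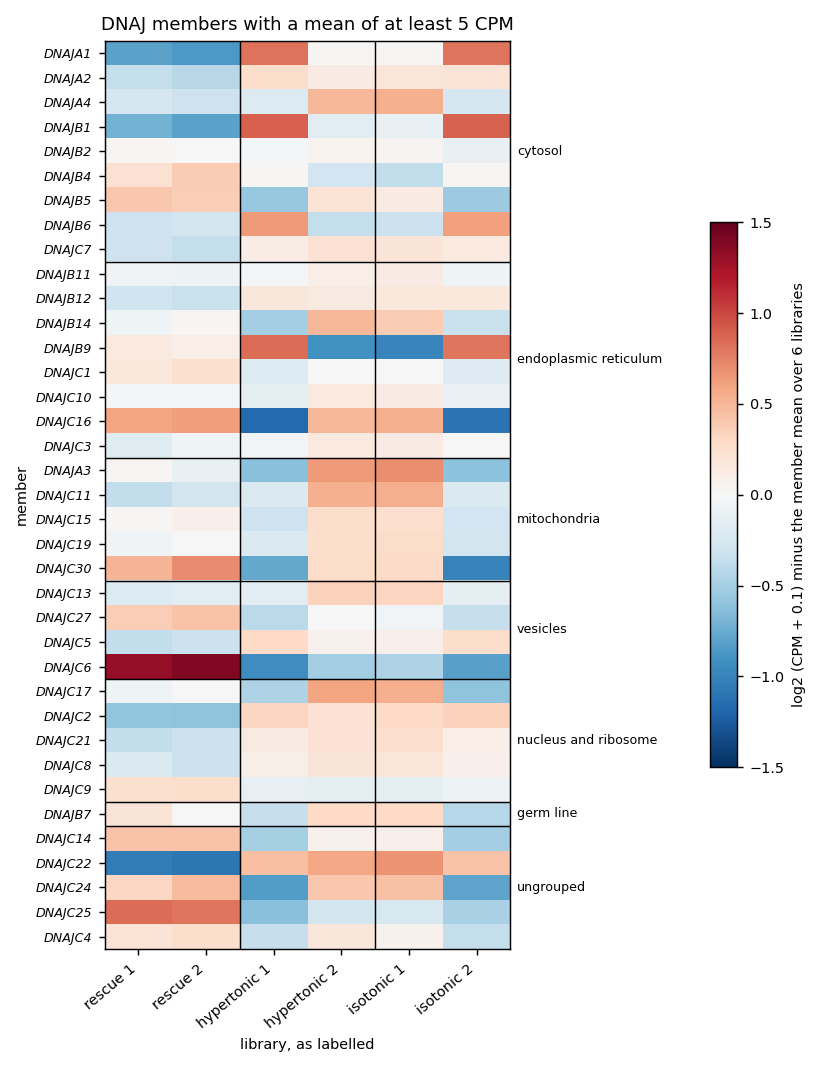
Levels of the 37 members with a mean of at least 5 CPM in each of the 6 libraries, as log2(CPM + 0.1) minus the member's own mean, with members grouped by role. Hypertonic 1 resembles isotonic 2 and hypertonic 2 resembles isotonic 1, while the 2 rescue libraries resemble each other.

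Taken as labelled, hypertonic against isotonic gave no call. With edgeR's quasi-likelihood test and Benjamini-Hochberg adjustment, 0 of 43 tested members passed, none had an unadjusted p under 0.05, and 0% of the 18208 genes passed in either direction. Over all genes, 52 had an unadjusted p under 0.05, while DESeq2 called 1 gene and limma voom 0. The two-sided test for 1 replicate number at a time, in which the lone hypertonic and isotonic libraries are assumed to vary like the rescue libraries, gave many calls with opposite signs. In number 1, hypertonic 1 exceeded isotonic 1 in 9 members and was below it in 18, against 31.6% and 32.6% of all genes tested. In number 2, hypertonic 2 exceeded isotonic 2 in 15 members and was below it in 9, against 32.9% and 31.0% of all genes. Scaling by library total alone gave the members a median log2 fold change of -0.37 in number 1, beside -0.15 over all genes. In number 2 it gave 0.24, beside 0.14 over all genes. All 22 members called in both numbers had opposite directions, as did 10654 of the 10662 genes called in both. As shares of what was tested, these are 51.2% of members and 58.0% of genes. Of the 3 endothelial markers, PECAM1 moved with the crossed pairs, at 23.9 and 3.48 CPM in hypertonic 1 and 2 against 3.59 and 24.7 CPM in isotonic 1 and 2. CDH5 stayed between 2.23 and 2.74 CPM in these 4 libraries and VWF between 1.59 and 1.90 CPM. The part of the PECAM1 difference in those of the members was not tested. The per-number calls describe differences between single libraries, whose direction by condition the labels do not settle.

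Of the 9 cytosolic members, most of which hand unfolded proteins to HSP70, 5 were higher and 2 lower in number 1 (median log2 fold change 0.24), against 31.6% and 32.6% of all genes. In number 2 the same 2 were higher and the same 5 lower (median -0.22), against 32.9% and 31.0% of all genes. The median over all genes was 0.00 in both numbers. In all 3 groups, fewer cells expressing a gene and less RNA per cell cannot be told apart in such bulk libraries.

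DNAJB1, the classical stress-inducible HSP40, lies at chr19:14514770-14529770 on the minus strand (GRCh38). Its level was 111 and 104.6 CPM in rescue 1 and 2, 338 and 163 CPM in hypertonic 1 and 2, and 169 and 336 CPM in isotonic 1 and 2. It was thus high in hypertonic 1 and isotonic 2, intermediate in the other pair and lowest in rescue, and hypertonic and isotonic overlapped. The fitted log2 fold change was 1.16 ± 0.0854 (SE) for hypertonic 1 against isotonic 1 (adjusted p = 2.07e-40, edgeR), and -1.19 ± 0.0855 for hypertonic 2 against isotonic 2 (adjusted p = 2.94e-42). TECR, on the opposite strand over 84.6% of the DNAJB1 span, was at 77.0 and 57.2 CPM in hypertonic 1 and 2 and at 61.3 and 73.2 CPM in isotonic 1 and 2, the same arrangement over a smaller range, and a share of its reads in DNAJB1 was not tested.

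DNAJA1, the main class A partner of cytosolic HSP70, lies at chr9:33025211-33039907 on the plus strand and carries the 3-unit element shown above. Its level was 224 and 215 CPM in rescue 1 and 2, 684 and 396 CPM in hypertonic 1 and 2, and 394 and 679 CPM in isotonic 1 and 2. The rescue libraries were below all others, and the hypertonic and isotonic libraries fell into the same crossed pairs. Hypertonic 1 stood 1.93-fold above isotonic 1 (log2 fold change 0.95 ± 0.0924, adjusted p = 8.13e-24, edgeR), and hypertonic 2 stood below isotonic 2 with a log2 fold change of -0.92 ± 0.0923.

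DNAJB6, a suppressor of polyglutamine aggregation that also carries the 3-unit element, was at 94.6 and 96.5 CPM in rescue 1 and 2, 183 and 91.4 CPM in hypertonic 1 and 2, and 93.7 and 179.6 CPM in isotonic 1 and 2. Unlike DNAJA1, its rescue libraries lay at the level of hypertonic 2 and isotonic 1. Hypertonic 1 was 2.18-fold above isotonic 1 (adjusted p = 7.93e-40, edgeR), and hypertonic 2 was 2.17-fold below isotonic 2 (adjusted p = 3e-39).

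DNAJB4, a close relative of DNAJB1, and DNAJA2, a constitutive class A member, followed with smaller log2 fold changes of 0.54 and 0.24 for hypertonic 1 against isotonic 1, and -0.46 and -0.22 for hypertonic 2 against isotonic 2. The DNAJB4 span is overlapped on the same strand by GIPC2 over 99.1% of its length, and GIPC2 moved with it between 46.5 and 77.8 CPM, so reads of the 2 may be split between them. DNAJA4 and DNAJB5, also cytosolic, went the other way. DNAJA4, which holds a pair of 2-unit elements, was at 15.2 and 14.6 CPM in rescue 1 and 2, 15.8 and 25.6 CPM in hypertonic 1 and 2, and 26.4 and 15.2 CPM in isotonic 1 and 2. DNAJB5 was at 79.2 and 77.6 CPM in rescue, 40.4 and 69.0 CPM in hypertonic 1 and 2, and 65.2 and 41.1 CPM in isotonic 1 and 2. Both were low where DNAJB1 was high. Members with the 2-unit element thus stood on both sides. WDR61, on the opposite strand over 24.1% of the DNAJA4 span, was at 22.3 and 45.5 CPM in hypertonic 1 and 2. In isotonic 1 and 2 it was at 48.3 and 22.1 CPM, and a share of its reads in DNAJA4 was not tested. DNAJB2, a ubiquitin-binding member of neurons, stayed within 49.7 to 55.9 CPM in all 6 libraries, and DNAJC7, a TPR protein that binds HSP70 and HSP90, was called in neither number.

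**Figure D2:**
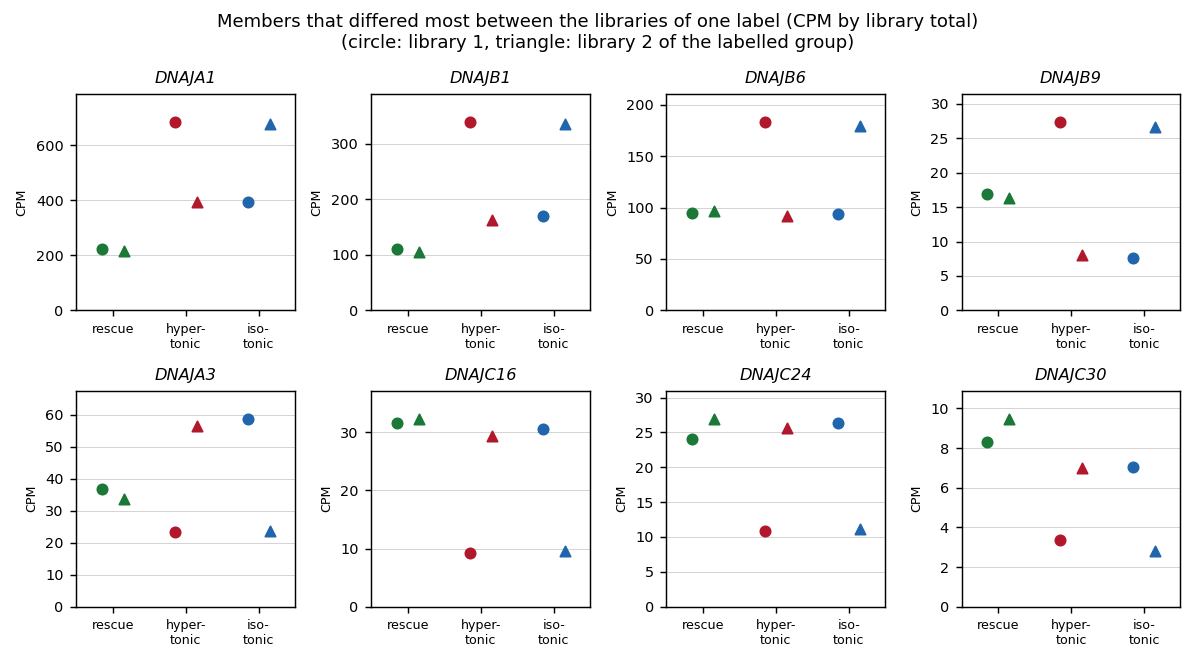
CPM by library total of DNAJA1, DNAJB1, DNAJB6, DNAJB9, DNAJA3, DNAJC16, DNAJC24 and DNAJC30 in each library, with rescue left, hypertonic in the middle and isotonic right; circles are libraries 1 and triangles libraries 2. DNAJB9 is at 27.3 and 26.7 CPM in hypertonic 1 and isotonic 2 and at 8.10 and 7.63 CPM in hypertonic 2 and isotonic 1, while DNAJA3 and DNAJC16 show the reverse arrangement.

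Among the 9 members of the endoplasmic reticulum, DNAJB9 had the largest per-number ratio of the members with a mean of at least 5 CPM. DNAJB9, or ERdj4, is a co-chaperone of the luminal HSP70 BiP and a classical target of the unfolded protein response. Its level was 17.0 and 16.4 CPM in rescue 1 and 2, 27.3 and 8.10 CPM in hypertonic 1 and 2, and 7.63 and 26.7 CPM in isotonic 1 and 2. The rescue libraries stood between the crossed pairs. The log2 fold change was 2.00 ± 0.114 for hypertonic 1 against isotonic 1 (adjusted p = 4.63e-67, edgeR), and -1.86 ± 0.113 for hypertonic 2 against isotonic 2 (adjusted p = 6.08e-59). Of the 9, 1 was higher and 2 were lower in number 1, and 2 were higher and 1 lower in number 2, so no other member of this group was called in the direction of DNAJB9 in either number.

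DNAJB11 and DNAJC3, which also work with BiP in the lumen, and DNAJC10, a disulfide reductase, were called in neither number. DNAJB11 stayed between 91.7 and 105 CPM, DNAJC3 between 47.9 and 59.9 CPM and DNAJC10 between 173 and 209 CPM over all libraries. DNAJC16, a membrane-anchored member, was at 31.6 and 32.3 CPM in rescue 1 and 2, 9.25 and 29.4 CPM in hypertonic 1 and 2, and 30.5 and 9.66 CPM in isotonic 1 and 2. It was low in hypertonic 1 and isotonic 2 and at one level in the other 4 libraries. Hypertonic 1 was 2.96-fold below isotonic 1 (log2 fold change -1.56 ± 0.109, adjusted p = 3.55e-45, edgeR), and hypertonic 2 was 2.76-fold above isotonic 2. DNAJB14 of the reticulum membrane had the same signs, with log2 fold changes of -0.73 in number 1 and 0.70 in number 2, whereas its paralog DNAJB12 was called in neither and stayed between 59.0 and 60.5 CPM in hypertonic and isotonic.

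All 5 members listed as mitochondrial had log2 fold changes below 0 in number 1 (-1.17 to -0.34) and above 0 in number 2 (0.40 to 1.17). Their median log2 fold change was -0.61 in number 1 and 0.62 in number 2, beside 0.00 over all genes in both. The role groups are chosen lists, and 7 members, among them DNAJC4 and DNAJC28, were assigned to no compartment. These 7 ranged from -1.13 to 0.08 in number 1 and from -0.42 to 1.06 in number 2. DNAJA3, the class A member of the matrix, was at 36.9 and 33.7 CPM in rescue 1 and 2, 23.4 and 56.5 CPM in hypertonic 1 and 2, and 58.8 and 23.6 CPM in isotonic 1 and 2. Rescue lay between the crossed pairs, and the log2 fold change was -1.17 ± 0.0959 in number 1 (adjusted p = 3.73e-33, edgeR). DNAJC30, linked to the respiratory chain, was at 8.28 and 9.48 CPM in rescue 1 and 2, 3.35 and 7.003 CPM in hypertonic 1 and 2, and 7.06 and 2.83 CPM in isotonic 1 and 2. DNAJC11, a partner of the cristae-organising complex, had log2 fold changes of -0.61 in number 1 and 0.62 in number 2. DNAJC15 and DNAJC19, of the import motor, ranged from 13.6 to 20.2 CPM and from 11.5 to 16.9 CPM over the 6 libraries.

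Of the remaining groups, DNAJC17, a nuclear member linked to splicing, was at 10.3 and 10.7 CPM in rescue 1 and 2, 7.78 and 16.2 CPM in hypertonic 1 and 2, and 15.8 and 7.03 CPM in isotonic 1 and 2. DNAJC24, which acts in diphthamide synthesis, was at 24.1 and 27.0 CPM in rescue, 10.8 and 25.7 CPM in hypertonic 1 and 2, and 26.3 and 11.2 CPM in isotonic 1 and 2. Both were low in hypertonic 1 and isotonic 2. DNAJC13, an endosomal protein, had the same arrangement with a range of 95.4 to 139 CPM. DNAJC5, the cysteine string protein of vesicles, was slightly higher in hypertonic 1 than in isotonic 1 (log2 fold change 0.38, adjusted p = 5.47e-05, edgeR) and lower in hypertonic 2 than in isotonic 2 (-0.35, adjusted p = 0.000251). Of the 43 tested members, 14 were called in neither number and 7 in only 1 of the 2.

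**Figure D3:**
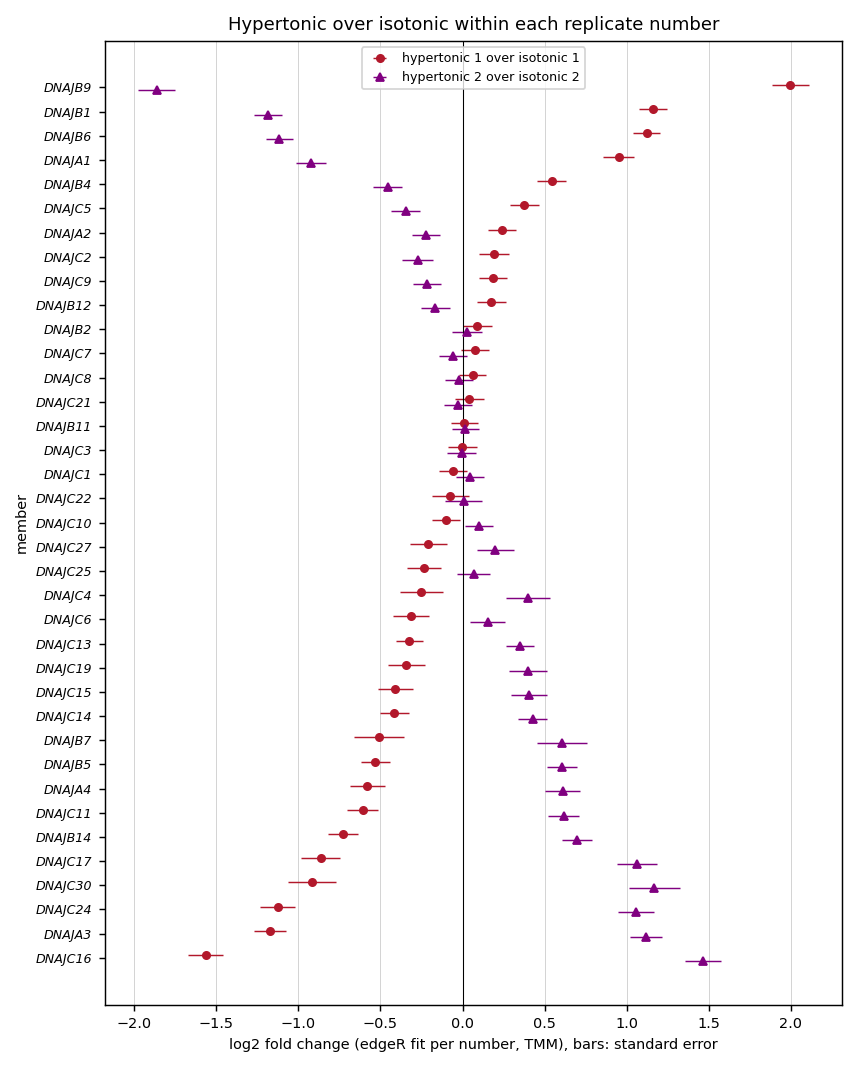
Fitted log2 fold change ± SE of hypertonic over isotonic for the 37 members with a mean of at least 5 CPM, in number 1 (circles) and number 2 (triangles), from edgeR fits which take their error from the rescue pair. The 22 members called in both numbers lie on opposite sides of 0, with DNAJB9 at 2.00 and -1.86.

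Rescue was set against the mean of the isotonic and hypertonic groups, a contrast whose estimate uses those 4 libraries alike whichever label they bear. Its error comes from the spread within the labelled groups, so the calls still depend on those labels. Here 5 members rose, 12 fell and 26 did not pass (edgeR, adjusted p under 0.05), against 14.6% of all genes higher and 17.0% lower. The median log2 fold change of the members was -0.32, beside -0.02 over all genes. Scaling by library total moved the median of all genes up by 0.29 on the log2 scale and gave 6 higher and 8 lower members, against 18.6% and 8.52% of all genes, and upper quartile scaling gave 5 and 7, against 18.1% and 11.0%. All 5 rises and 7 of the falls passed under the 4 scalings tried. The falls of DNAJA1, DNAJB11, DNAJC3, DNAJC5 and DNAJC10 did not pass in at least 1 of them. Leaving out rescue 1 or rescue 2 ended every call, and the falls numbered 7 without hypertonic 1 or without isotonic 2.

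Rescue against isotonic gave 4 higher and 10 lower members, against 9.61% and 13.5% of all genes, and rescue against hypertonic also 4 and 10, against 9.86% and 13.8%. These contrasts share the rescue libraries. By library total 6 members were higher and 5 lower against isotonic, beside 2050 and 1095 of the 18208 genes. Against hypertonic the members numbered 5 and 5, beside 2109 and 1098 genes. Leaving out either library of the group set against rescue ended all calls in that contrast. Counted without a model, both rescue libraries lay above the other 4 in 15 members and below them in 12 by CPM, against 45.8% and 20.3% of all genes. With TMM-scaled CPM the counts were 9 and 19, against 34.2% and 31.3% of all genes. Rescue 1 and 2 had 690 and 699 genes at 0 counts, against 1248 to 1653 in the other libraries. The 4 epithelial markers summed to 17.4 and 16.2 CPM in rescue, against 5.38 to 7.60 CPM elsewhere, and the 4 leukocyte markers to 3.21 and 2.75 CPM, against 0.399 to 1.12 CPM. The epithelial sum was mostly EPCAM, at 12.6 and 11.7 CPM in rescue and 3.16 to 4.48 CPM elsewhere. CDH1 and KRT5 overlapped between rescue and the other libraries. Of the endothelial markers, VWF was at 11.4 CPM in both rescue libraries, against 1.59 to 1.90 CPM elsewhere, and CDH5 at 5.14 and 5.27 CPM, against 2.23 to 2.74 CPM. PECAM1 did not rise, as its 14.3 and 12.8 CPM in rescue 1 and 2 lay between the crossed pairs. Of all these, 2 epithelial and 3 leukocyte markers stayed below 1 CPM in every library. The part of these in the rises was not tested.

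Of the 5 members that rose in rescue, DNAJC12, DNAJB13 and DNAJC5G were below 2 CPM in the other 4 libraries. DNAJC12, which helps fold the aromatic amino acid hydroxylases, lies at chr10:67796665-67838166 on the minus strand. Its level was 9.69 and 10.6 CPM in rescue 1 and 2, 0.513 and 0.328 CPM in hypertonic 1 and 2, and 0.541 and 0.399 CPM in isotonic 1 and 2. Both rescue values were above all others, hypertonic and isotonic overlapped, and these 4 lower values rested on 34 to 57 counts. The log2 fold change was 4.20 ± 0.294 (adjusted p = 0.00426, edgeR).

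DNAJC6, or auxilin, which brings HSC70 to clathrin coats for their removal, was at 53.2 and 56.0 CPM in rescue 1 and 2, 11.1 and 14.8 CPM in hypertonic 1 and 2, and 15.4 and 12.1 CPM in isotonic 1 and 2. All rescue values were above all others, with a 3.34-fold rise (log2 fold change 1.74 ± 0.138, adjusted p = 0.0047, edgeR). GAK, the widely expressed relative of auxilin, had a log2 fold change of -0.11 (adjusted p = 0.546). DNAJB13, an axonemal protein of sperm flagella, was at 6.69 and 7.15 CPM in rescue and between 1.10 and 1.97 CPM in the other 4 libraries (log2 fold change 1.96 ± 0.25, adjusted p = 0.0085). DNAJC25 was at 48.8 and 47.7 CPM in rescue 1 and 2, and between 17.6 and 23.1 CPM elsewhere (log2 fold change 0.93 ± 0.12, adjusted p = 0.00878). The readthrough gene DNAJC25-GNG10 spans 99.9% of it and ranged from 29.6 to 57.9 CPM, so their reads may be shared. DNAJC5G, a relative of DNAJC5, had 1.07 and 1.17 CPM in rescue 1 and 2, against no more than 0.111 CPM elsewhere (log2 fold change 3.52 ± 0.704, adjusted p = 0.0249), with isotonic 1 below the value of 3 counts. SLC30A3, which overlaps it on the opposite strand, had 23.2 and 20.5 CPM in rescue 1 and 2, against 6.51 to 6.67 CPM elsewhere, and a share of its reads in DNAJC5G was not tested.

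**Figure D4:**
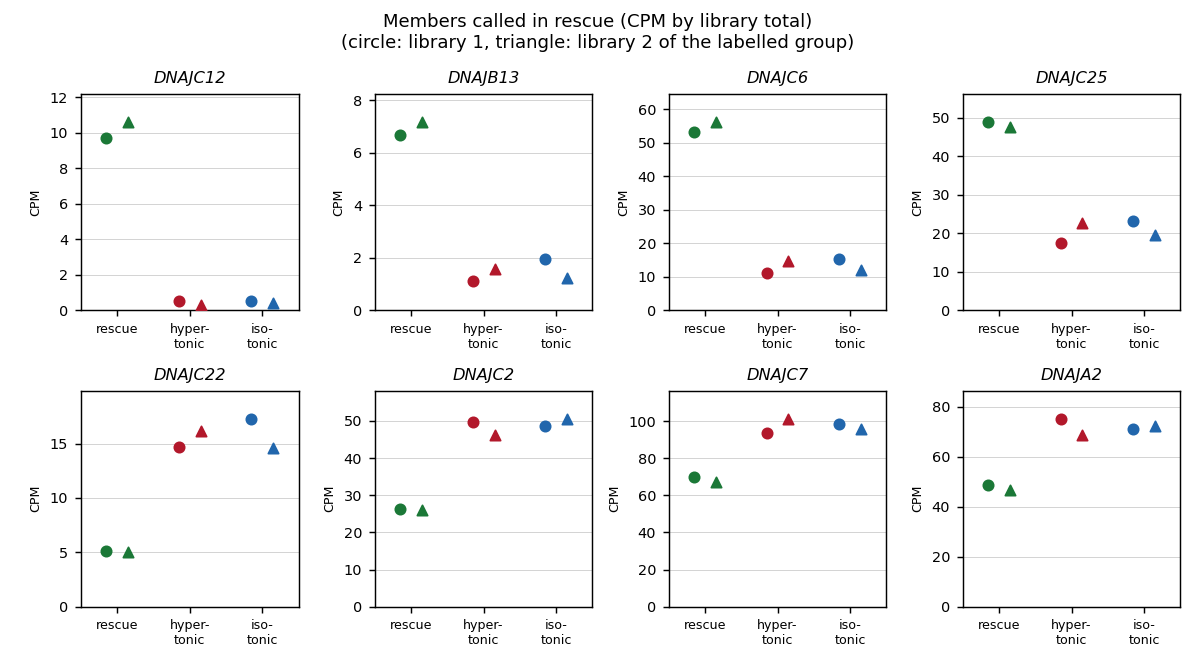
CPM by library total of 8 members called in rescue against the mean of isotonic and hypertonic, with rescue left, hypertonic in the middle and isotonic right; circles are libraries 1 and triangles libraries 2. The 4 members of the upper row are higher in both rescue libraries, as with DNAJC12 at 9.69 and 10.6 CPM, and the 4 of the lower row are lower in both.

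Members that fell in rescue included cytosolic, nuclear and ribosomal ones. DNAJC22, a membrane protein whose homolog in Drosophila acts in endocytosis, was at 5.13 and 5.02 CPM in rescue 1 and 2, 14.7 and 16.1 CPM in hypertonic 1 and 2, and 17.3 and 14.6 CPM in isotonic 1 and 2. It fell 3.78-fold, with both rescue values below all others (log2 fold change -1.92 ± 0.143, adjusted p = 0.00444, edgeR). DNAJC2, which acts on nascent chains at the ribosome, was at 26.4 and 26.1 CPM in rescue, 49.8 and 46.2 CPM in hypertonic 1 and 2, and 48.7 and 50.6 CPM in isotonic 1 and 2 (log2 fold change -1.20 ± 0.14, adjusted p = 0.00717). Other genes overlap 52.6% of its span, among them PMPCB, which was at 39.1 and 37.8 CPM in rescue and 65.6 to 69.2 CPM elsewhere. DNAJC21, which acts in maturation of the large ribosomal subunit, and DNAJC8, a spliceosome-associated protein, fell with log2 fold changes of -0.82 ± 0.0887 (adjusted p = 0.00617) and -0.71 ± 0.0896 (adjusted p = 0.00849). Of the 5 members of the nucleus and ribosome, none rose and 3 fell, against 14.6% and 17.0% of all genes. DNAJC9, a histone chaperone, had a log2 fold change of 0.08 (adjusted p = 0.633), but by library total it was called higher (0.38, adjusted p = 0.0226). FAM149B1 (opposite strand) and MRPS16 (same strand) overlap its span, by up to 93.3%. FAM149B1 was at 158 and 163 CPM in rescue 1 and 2 and 105 to 109 CPM elsewhere. MRPS16 went the other way, at 60.4 and 55.6 CPM against 75.3 to 93.9 CPM. A share of their reads in DNAJC9 was not tested.

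Of the 9 cytosolic members, none rose in rescue and 3 fell, against 14.6% and 17.0% of all genes, with a median log2 fold change of -0.80, beside -0.02 over all genes. DNAJA2 was at 48.9 and 46.9 CPM in rescue 1 and 2, 75.3 and 68.6 CPM in hypertonic 1 and 2, and 71.1 and 72.5 CPM in isotonic 1 and 2 (log2 fold change -0.89 ± 0.134, adjusted p = 0.0121, edgeR). DNAJC7 was at 70.0 and 67.3 CPM in rescue 1 and 2, and between 93.3 and 101 CPM elsewhere (-0.80 ± 0.0909, adjusted p = 0.00681). Both members had their rescue values below those of every other library. DNAJA1 had a larger difference with a larger error (-1.61 ± 0.418, adjusted p = 0.0474), and DNAJB1, at -1.55 ± 0.516, did not pass (adjusted p = 0.0858). The error of both holds the crossed difference between their hypertonic and isotonic libraries.

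In the endoplasmic reticulum 4 of 9 members fell, against 17.0% of all genes, with DNAJB12 showing the largest fall, at 43.6 and 42.4 CPM in rescue 1 and 2 (log2 fold change -0.78 ± 0.116, adjusted p = 0.0118, edgeR). DNAJB11, DNAJC3 and DNAJC10 fell by 0.39, 0.48 and 0.32 on the log2 scale (adjusted p = 0.0259, 0.0229 and 0.0495). By library total these 3 were at -0.10, -0.18 and -0.03 and did not pass (adjusted p = 0.511, 0.306 and 0.867). DNAJB9 did not pass (-0.40, adjusted p = 0.726), nor did DNAJC16 (0.44, adjusted p = 0.619) or DNAJB14 (-0.37, adjusted p = 0.42). None of the 5 mitochondrial members passed in either direction. Among the 6 vesicle members, DNAJC6 and DNAJC5G rose and DNAJC5 fell (-0.83 ± 0.177, adjusted p = 0.0291).

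**Figure D5:**
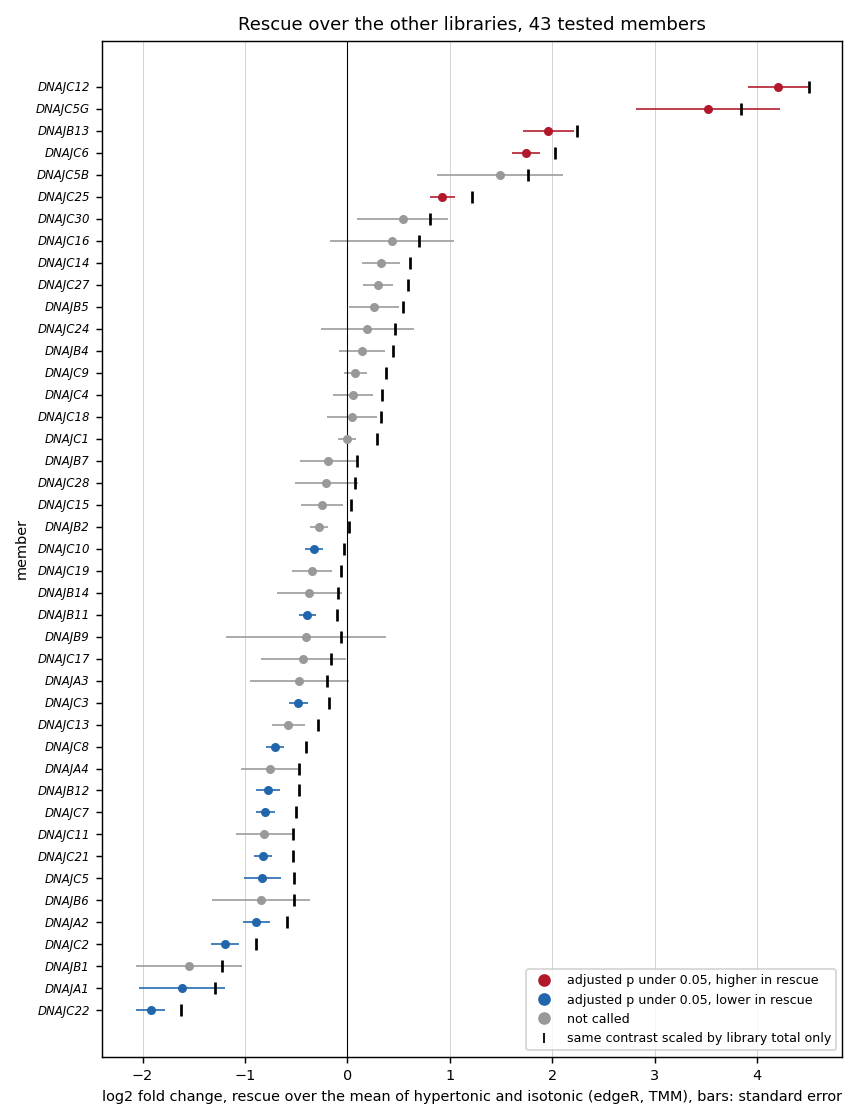
Fitted log2 fold change ± SE of rescue over the mean of isotonic and hypertonic for the 43 tested members (edgeR, TMM scaling), with a bar mark for the value under scaling by library total. DNAJC12 is at 4.20 and DNAJC22 at -1.92.

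The members not described above are given by their range. DNAJB8 was the member left out by the filter on low counts, at 0 to 0.0652 CPM, and DNAJC5B stayed at or below 0.25 CPM. DNAJC18 was at 1.93 to 3.09 CPM, DNAJC28 at 1.07 to 1.96 CPM, DNAJB7, which lies wholly inside XPNPEP3, at 4.05 to 6.81 CPM and DNAJC4 at 6.15 to 9.59 CPM. DNAJC27 ranged from 12.1 to 21.6 CPM, DNAJC14 from 40.3 to 77.2 CPM and DNAJC1 from 64.2 to 87.4 CPM. None of these passed in rescue against the mean of the other groups. The spans of 18 members overlap another gene of the tables, 7 of them over at least 50% of their length (DNAJB1, DNAJB4, DNAJB7, DNAJC2, DNAJC9, DNAJC14 and DNAJC25), and the treatment of overlaps and strand in counting is not stated in the labels or processing notes.

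The partners of the family in the HSP70 cycle take up 29 rows, with HSPA14 on 2 of them. In rescue against the mean of the other groups 1 rose and 10 fell, against 14.6% and 17.0% of all genes, with a median log2 fold change of -0.70, beside -0.02 over all genes. HSPA8, the constitutive cytosolic HSP70, had the largest fall (log2 fold change -2.66 ± 0.131, adjusted p = 0.00332, edgeR). The nucleotide exchange factor HSPA4 (-0.98, adjusted p = 0.00471) and the mitochondrial HSPA9 (-1.05, adjusted p = 0.00499) fell as well, while HSPA4L rose (3.32, adjusted p = 0.0106). BiP, encoded by HSPA5, fell by 0.60 (adjusted p = 0.0386). HSPA5 did not pass in rescue against isotonic or against hypertonic (adjusted p = 0.0642 and 0.0623, edgeR). Partner values are given under TMM scaling only. Hypertonic 1 exceeded isotonic 1 in 18 rows and was below it in 6, against 31.6% and 32.6% of all genes. Hypertonic 2 exceeded isotonic 2 in 5 and was below it in 17, against 32.9% and 31.0%. The exchange factor HSPH1 had log2 fold changes of 1.29 and -1.24 in the 2 numbers, and the exchange factor BAG3 1.49 and -1.51. HSPA8 had the opposite signs, -0.23 and 0.22. Among J-domain genes with other symbols, SEC63 of the translocon fell in rescue (-0.92, adjusted p = 0.00521, edgeR), and HSCB of iron-sulfur cluster assembly and GAK did not pass.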

How the data were processed

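Total RNA of 6 libraries was depleted of ribosomal RNA and sequenced on an Illumina instrument after a uridine digestion that marks the strand, per the labels' protocols. The authors deposited raw whole-number counts per gene for each library. Tools were bcl2fastq, TopHat2, Bowtie2 and bedtools with build GRCh38 (hg38), per the submitters' processing notes; for their versions, the annotation and the strand setting, the sources used here give nothing. Gene coordinates were taken from the GENCODE annotation of GRCh38 by symbol.

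Groups follow the titles. All 6 libraries entered one edgeR 4.0.16 quasi-likelihood fit with a mean per group (filterByExpr, TMM, robust dispersion, Benjamini-Hochberg adjustment over all genes, two-sided threshold 0.05). It tested 18208 genes with a biological coefficient of variation of 38.4% and 3 residual degrees of freedom. The per-number fits left out the isotonic and hypertonic libraries of the other number, and had 1 residual degree of freedom. Their biological coefficient of variation was 4.49%. Their median prior degrees of freedom were infinite, so most genes were given a spread shared over genes and none of their own. The small p-values of these fits rest on that shared spread. DESeq2 1.42.0, limma 3.58.1, other scalings and filters, a replicate block and leaving out each library were alternatives. CPM values use library totals unless called TMM-scaled, and ratios of libraries use CPM plus 0.1. Library pairs were compared over genes with at least 100 summed counts. The labels give replicate numbers and do not say whether same-numbered libraries were handled together. The model code was tested on simulated data with known changes. Precision is limited by counting for members with few reads; floors of 3 counts cover counting error only.

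Named with values were members that passed in any rescue contrast, the 8 with the largest change in each per-number fit and those varying over 2-fold, where their mean reached 5 CPM, and a chosen set of well-known members. The other members are given by range and were added for completeness. The members, role groups, partner list, motifs and tests were chosen with earlier results of these data known.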

Additional observations from a re-analysis of the deposited data

How the results depend on the processing

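None of the 1007 alternative values of the 82 named-member results changed sign while called. For rescue against the mean of the other groups (5 members higher, 12 lower), upper quartile scaling gave 7 lower, the number 1 fit 13 higher and 23 lower, and the number 2 fit also 13 and 23. Leaving out 1 library gave 0 to 5 higher and 0 to 9 lower, with 0 without either rescue library. Rescue against isotonic gave 5 lower by library total, 9 higher and 26 lower in the number 1 fit, 13 and 19 in the number 2 fit, and 0 to 4 higher and 0 to 8 lower when 1 library was left out. Rescue against hypertonic gave 5 lower by library total, 12 and 19 in the number 1 fit, 8 and 25 in the number 2 fit, and 0 to 5 higher and 0 to 7 lower when 1 library was left out. In the fits with a library left out, a lone library is assumed to vary like the other groups. Hypertonic against isotonic gave 9 higher and 18 lower in the number 1 fit, 15 and 9 in the number 2 fit, and 0 when any library was left out. With TMM-scaled CPM both rescue libraries were above the other 4 in 9 members and below in 19, against 34.2% and 31.3% of all genes. By CPM, leaving out 1 library gave 15 to 17 above and 12 to 14 below. The cause of these moves was not tested.

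Over all genes, rescue against the mean of the other groups gave 2663 higher and 3098 lower by TMM, 3382 and 1551 by library total, 3294 and 1995 by upper quartile scaling, and 3906 and 4309 with DESeq2. Rescue against isotonic gave 1749 and 2453 by TMM, 2050 and 1095 by library total, and 3280 and 3761 with DESeq2. Rescue against hypertonic gave 1796 and 2508, 2109 and 1098, and 3317 and 3788 in the same order. With the replicate number as a block, rescue against the mean of the other groups gave 591 and 508 genes, and 2 members higher (DNAJC6, DNAJC12) and 1 lower (DNAJC22); rescue against isotonic and against hypertonic gave 0 and 0 members. Whether the numbers pair the samples cannot be settled from these values. With 2 libraries per group, each r below is the same in both numbers. Deviations of rescue libraries from their group mean had r = -0.03 with same-numbered isotonic and 0.04 with same-numbered hypertonic libraries across genes. Same-numbered hypertonic and isotonic libraries deviated in opposite directions (r = -0.95), which labels exchanged within a number would also give. A crossed pairing of these 4 libraries, added after seeing the data, gave 6 genes higher and 15 lower in hypertonic against isotonic, and 0 members.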
